A study of Homo sapiens with 4 samples.

Results

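The luminal mammary transcription factors examined here were FOXA1, GATA3, ESR1, SPDEF, TFAP2A, TFAP2B, TFAP2C, ELF3 and GRHL2. They were chosen by name, as 9 of the 56271 gene rows in the count table, with ESR1 included as a gene known to be low in these cells. The libraries were poly-A-enriched RNA of SKBR3, an established HER2-positive breast cancer line. In the eGFP control group (n = 2) the cells carried a lentiviral vector expressing eGFP. In the VIRMA-overexpressing group (n = 2) they carried the same type of vector with HA-tagged full-length VIRMA and eGFP joined by a self-cleaving peptide. Per the study's methods, eGFP-positive cells of both groups were sorted and expanded, so that each group was a selected population and not a clone. The control eGFP stood behind the human ubiquitin C promoter, which is active in most cell types. The labels of all 4 libraries carry a culture text about low oxygen and protein extraction, which leaves the oxygen level uncertain for both groups. VIRMA is a scaffold protein of the complex that writes N6-methyladenosine on RNA, and the comparison asks which transcripts differ when it is raised.

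Luminal cells line the ducts and lobules of the mammary gland, and a small network of transcription factors sets and keeps their identity. FOXA1 is a pioneer factor that opens chromatin for the estrogen receptor, GATA3 drives luminal differentiation, and ESR1 encodes estrogen receptor alpha. TFAP2A, TFAP2B and TFAP2C encode AP-2 proteins, which bind the same GC-rich element. ELF3 and SPDEF are ETS-family factors found mainly in epithelia, and GRHL2 is a Grainyhead-like factor that maintains genes of epithelial junctions.

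The libraries held 81446932 to 86375474 counts, of which 98.94% to 99.11% fell in the 12205 genes tested. The share of counts in mitochondrial genes was 11.35% and 11.6% in the controls against 12.83% and 12.81% with VIRMA overexpression. VIRMA itself, listed under its older symbol KIAA1429, went from 710 and 682 counts in the control libraries to 3437 and 3460 with overexpression (log2 fold change 2.29, SE 0.0685, edgeR adjusted p 9.74e-26). It was among the tested genes through the VIRMA-overexpressing libraries alone, at 3.763 and 3.88 RPKM against 0.8003 and 0.764 RPKM. These counts do not separate the introduced from the endogenous gene. ERBB2, which encodes HER2, was at 686.4 ± 11.4 RPKM in the controls and 685.9 ± 0.0778 RPKM in the VIRMA-overexpressing cells (SD, n = 2), and PGR, the progesterone receptor, had 0 counts in every library. RPKM here is CPM, the count scaled to the total in tested genes and by TMM, divided by the exonic length in kilobases. These were bulk libraries, in which fewer cells of a type and less RNA per cell cannot be told apart.

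The luminal factors covered a wide range of levels. In the controls SPDEF was the highest at 177.1 ± 0.215 RPKM, followed by TFAP2C at 113.8 ± 0.334, ELF3 at 50.99 ± 0.662, FOXA1 at 42.93 ± 0.562, TFAP2A at 14.47 ± 0.177, GATA3 at 13.23 ± 0.92 and GRHL2 at 5.977 ± 0.273 RPKM (SD, n = 2). TFAP2B at 0.8014 ± 0.118 RPKM and ESR1 at 0.02795 ± 0.0093 RPKM were the lowest. The control libraries of neighbouring factors in this order did not overlap. The order is per exonic length as given in the count table, which was 1914 bases for SPDEF and 7191 for ELF3. The order was the same in the VIRMA-overexpressing cells, where TFAP2A (14.99 ± 0.113 RPKM) and GATA3 (14.88 ± 0.219 RPKM) overlapped and no other neighbours did. SPDEF exceeded 98.24% of the tested genes per length in the controls and TFAP2C exceeded 97.06%, whereas GRHL2 exceeded 55.56%. All 9 are protein-coding genes, and 4 of them (ESR1, SPDEF, TFAP2A and TFAP2B) lie on chromosome 6.

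**Figure D1:**
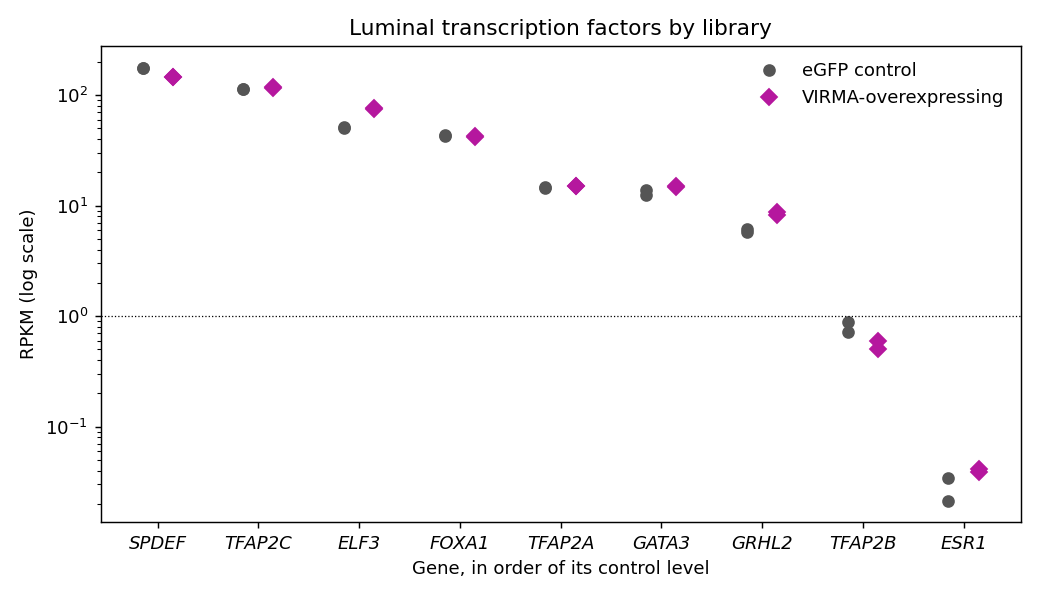
Level of each luminal factor in each library, as RPKM on a log axis, with the 2 eGFP control and the 2 VIRMA-overexpressing libraries as points. SPDEF lay between 144.6 and 177.3 RPKM and ESR1 below 0.0416 RPKM, and the shift between groups was upward for ELF3 and GRHL2 and downward for SPDEF.

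Of the 9 factors, 7 passed the filter on low values and were tested, and TFAP2B and ESR1 did not pass it. With an adjusted p below 0.05 and at least a 2-fold change, 0 were higher and 0 were lower by the edgeR quasi-likelihood test, and DESeq2 and limma-voom also gave 0 and 0. Among all tested genes, 4.52% were higher and 2.93% lower by these thresholds. At the edgeR adjusted p alone, ELF3, GRHL2 and GATA3 were higher and SPDEF was lower, or 3 and 1 of 7, and the same 3 and 1 had an unadjusted p below 0.05. By that rule 35.1% of all tested genes were higher and 35.9% lower, and the counts of factors are to be read against these shares. The groups did not overlap in 5 factors that were higher and in 1 that was lower, against 42.7% and 41.6% of all tested genes. The median log2 fold change of the 7 factors was 0.051, beside 0.012 over all tested genes. The absolute log2 fold change had a median of 0.335 and an upper quartile of 0.593 over all tested genes, and every one of the 7 factors lay below that quartile. The smallest p that an exact two-sided permutation test allows with 2 libraries per group is 0.333, so the calls rest on the spread that edgeR shares across genes.

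**Figure D2:**
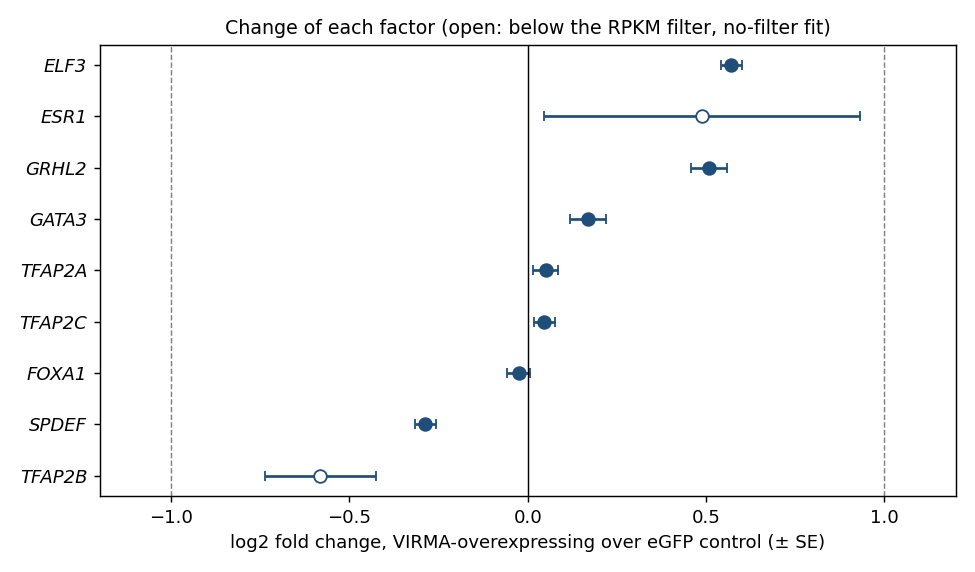
Log2 fold change of each of the 9 luminal factors between VIRMA-overexpressing and eGFP control cells. Bars are the standard error of the edgeR fit, and dashed lines mark a 2-fold change. Open points mark TFAP2B and ESR1, which were below the filter and come from the fit with no filter. Of the 7 tested factors, ELF3 (0.57) and GRHL2 (0.51) were the highest and SPDEF (-0.29) the lowest. TFAP2B was at -0.58 and ESR1 at 0.49, and no point reached a dashed line.

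ELF3 (chromosome 1, 202007945 to 202017188, plus strand, GRCh38) showed the largest change of the 7 tested factors. It had 51.46 and 50.52 RPKM in the controls against 75.23 and 76.32 RPKM with VIRMA overexpression. Both VIRMA-overexpressing libraries lay above both controls, and the distance between the groups was far larger than that between replicates. The log2 fold change was estimated at 0.57 (SE 0.0288, edgeR adjusted p 4.34e-19), a 1.486-fold rise, and 73.3% of tested genes changed less. ELF3 moved from above 92.69% to above 96.03% of the tested genes per length.

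GRHL2 (chromosome 8, 101492432 to 101669726, plus strand) also rose, from a lower level. It had 5.784 and 6.17 RPKM in the controls against 8.778 and 8.215 RPKM with VIRMA overexpression, without overlap. On the log2 scale the change was 0.51 (SE 0.0503, edgeR adjusted p 4.17e-11). Within each library the ratio of GRHL2 to ELF3, per length, was 0.1124 and 0.1221 in the controls against 0.1167 and 0.1076 with VIRMA overexpression, so the ratio overlapped between the groups.

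SPDEF (chromosome 6, 34537802 to 34556333, minus strand), the highest of the 9 factors per exonic length, fell. In CPM, without division by length, ELF3 was above SPDEF in both groups. The means were 366.7 against 339.1 CPM in the controls and 544.9 against 277.8 CPM with VIRMA overexpression. SPDEF had 177.3 and 177 RPKM in the controls against 145.7 and 144.6 RPKM with VIRMA overexpression. The replicates of each group lay close together and the groups were well apart. The log2 fold change was estimated at -0.29 (SE 0.0298, edgeR adjusted p 1.22e-10), which left 0.8194 of the control level. SPDEF thus moved opposite to ELF3, the other ETS-family factor. The ratio of ELF3 to SPDEF per length, which does not depend on the scaling of the libraries, was 0.2902 and 0.2855 in the controls against 0.5165 and 0.5277 with VIRMA overexpression, a 1.814-fold rise of the ratio.

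**Figure D3:**
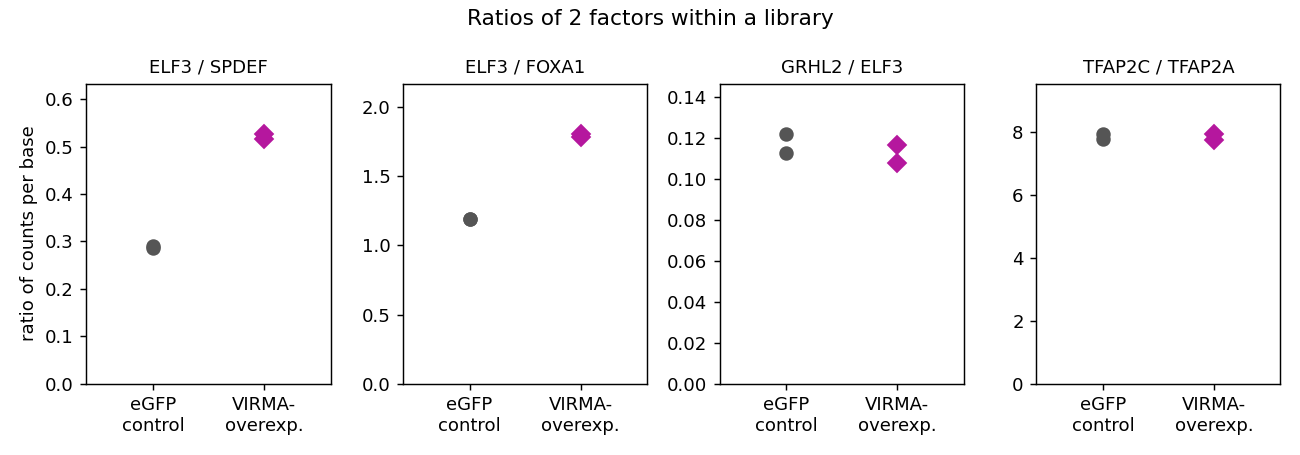
Ratios between luminal factors within each library, per exonic length, for the 2 eGFP control and the 2 VIRMA-overexpressing libraries. ELF3 over SPDEF rose from 0.2879 to 0.5221 on average, while TFAP2C over TFAP2A and GRHL2 over ELF3 overlapped between the groups.

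The promoters of ELF3 and SPDEF are shown because these 2 ETS-family factors moved in opposite directions. The windows run from 250 bases before to 50 bases after a RefSeq transcription start (GRCh38.p14), at chr1:202010337-202010636 on the plus strand for ELF3 and at chr6:34556280-34556579 on the minus strand for SPDEF. The ELF3 window lies inside the span that the count table gives for the gene. Capitals mark GGATG, a core preferred by SPDEF, in the ELF3 window, and GGAAG, a general ETS core, in the SPDEF window, on either strand.
ELF3: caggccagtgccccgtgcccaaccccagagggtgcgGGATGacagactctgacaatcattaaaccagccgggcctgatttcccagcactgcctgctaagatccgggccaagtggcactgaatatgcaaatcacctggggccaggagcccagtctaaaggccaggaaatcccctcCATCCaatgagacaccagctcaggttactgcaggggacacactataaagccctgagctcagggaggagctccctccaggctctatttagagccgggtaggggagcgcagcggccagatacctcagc
SPDEF: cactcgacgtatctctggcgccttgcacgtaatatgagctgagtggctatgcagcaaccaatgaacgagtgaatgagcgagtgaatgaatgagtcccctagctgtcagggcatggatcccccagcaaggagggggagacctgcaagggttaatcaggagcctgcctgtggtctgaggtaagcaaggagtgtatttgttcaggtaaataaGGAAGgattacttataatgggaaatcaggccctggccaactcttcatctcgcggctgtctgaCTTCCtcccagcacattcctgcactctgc
The matches began at -214 and -76 from the start in ELF3 and at -41 and 22 in SPDEF. These short cores are common, with GGATG in 40.8% and GGAAG in 71.9% of the 35116 promoter windows of the same length in the RefSeq table. The ELF3 window held no GGAAG and the SPDEF window no GGATG. Of the 9 factors, 7 had windows in the table, 18 in all, and TFAP2C and GRHL2 had none. The FOXA motif TGTTTAC (3.42% of all windows), the GATA motif AGATAA (10.3%), the GRHL motif AACNGGTT (1.73%) and the full palindromic estrogen response element (0.057%) were found in none of the 18 windows. The related FOXA motif TGTTTGC (3.89% of all windows) was found in FOXA1 and GATA3, and the AP-2 motif GCCNNNGGC (23.2%) in 3 windows, all of GATA3. These matches describe letters in a window and not binding.

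GATA3 (chromosome 10, 8053604 to 8075198, plus strand) had 12.58 and 13.88 RPKM in the controls against 14.73 and 15.04 RPKM with VIRMA overexpression. The groups did not overlap, but the controls differed from each other by more than the nearest control and VIRMA-overexpressing libraries did. On the log2 scale the change was 0.17 (SE 0.0498, edgeR adjusted p 0.00302), and 26.96% of tested genes changed less. It did not pass without eGFP control replicate 1 (0.0956, edgeR adjusted p 0.143) or with the filterByExpr filter (0.1256, edgeR adjusted p 0.0532).

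FOXA1 (chromosome 14, 37589984 to 37596059, minus strand), the pioneer factor, had 43.33 and 42.54 RPKM in the controls against 41.58 and 42.78 RPKM with VIRMA overexpression, so the groups overlapped. The log2 fold change was estimated at -0.025 (SE 0.0327, edgeR adjusted p 0.495), and its sign turned with upper-quartile factors (0.046), library totals (0.0601) and a filter of RPKM above 1 in all 4 libraries (0.00329). Against FOXA1 in the same library, ELF3 was at 1.188 in each control and at 1.809 and 1.784 in the VIRMA-overexpressing cells.

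The AP-2 genes were unequal in level, with TFAP2C above the others. The distance is larger per length, since the exonic length was 3005 bases for TFAP2C and 8245 for TFAP2A. In CPM the control means were 341.9 for TFAP2C and 119.3 for TFAP2A. TFAP2C (chromosome 20, 56629302 to 56639283, plus strand) had 113.6 and 114 RPKM in the controls against 116.8 and 118.3 RPKM with VIRMA overexpression. TFAP2A (chromosome 6, 10393186 to 10419659, minus strand) had 14.6 and 14.35 RPKM and then 15.07 and 14.91 RPKM. Both were slightly higher without overlap between groups, at log2 fold changes of 0.047 (SE 0.0294, edgeR adjusted p 0.157) for TFAP2C and 0.051 (SE 0.0347, edgeR adjusted p 0.192) for TFAP2A, and neither passed. Both did pass with upper-quartile factors, library totals and the filter of RPKM above 1 in all 4 libraries, at 0.0753 to 0.132 for TFAP2C and 0.0794 to 0.136 for TFAP2A. The ratio of TFAP2C to TFAP2A, per length, was 7.78 and 7.949 in the controls against 7.749 and 7.934 with VIRMA overexpression, and so overlapped.

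TFAP2B (chromosome 6, 50818723 to 50847613, plus strand) was below the filter, with 448 and 366 counts in the controls against 308 and 257 with VIRMA overexpression. The VIRMA-overexpressing libraries were below both controls. In the fit with no filter on low counts the log2 fold change stood at -0.58 (SE 0.155, edgeR adjusted p 0.000845), where 15.3% of the 33976 genes were lower at the adjusted p. Shares of the summed RPKM of the 3 AP-2 genes depend on the exonic lengths. By this measure TFAP2C made up 88% to 88.47% in every library and TFAP2A 11.11% to 11.38%. TFAP2B made up 0.6855% and 0.5563% in the controls against 0.4461% and 0.3777% with VIRMA overexpression.

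ESR1 (chromosome 6, 151656691 to 152129619, plus strand) had 24 and 39 counts in the controls against 48 and 44 with VIRMA overexpression, over 13629 exonic bases. It was close to zero in both groups, and the controls differed from each other by more than the nearest libraries of the groups. Without a filter the log2 fold change stood at 0.49 (SE 0.444, edgeR adjusted p 0.509). A change was not detectable at this depth.

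Rows that overlap the factors limit some of these values, since whether the counting used strand is not stated. RP11-510N19.5, on the same strand as ELF3 and sharing 664 exonic bases with it, rose from 721 and 777 to 1241 and 1317 counts (log2 fold change 0.75, SE 0.0901, edgeR adjusted p 3.3e-09). RP11-465N4.4 shares 554 bases with ELF3 on the opposite strand and was at 0.25 (edgeR adjusted p 0.126). Both counts were small beside the 30112 to 45876 counts of ELF3. How reads in shared bases were counted is not stated, so these counts do not bound the effect of the overlaps on ELF3. MIR6740, a microRNA gene 4709 bases from ELF3, had 11 to 20 counts and was at 0.54 (edgeR adjusted p 0.468). RNPEP, an aminopeptidase gene on the same strand 1798 bases from ELF3, went the other way and fell from 21596 and 21276 counts to 14344 and 14284 (log2 fold change -0.60, SE 0.0317, edgeR adjusted p 1.43e-18).

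PACSIN1, 2571 bases from SPDEF on the opposite strand, fell with it, from 1432 and 1292 to 849 and 855 counts (log2 fold change -0.70, SE 0.0865, edgeR adjusted p 7.15e-09). TFAP2A-AS1, which shares 438 bases with TFAP2A on the opposite strand, had 177 to 247 counts and was at 0.28 (edgeR adjusted p 0.182). TTC6 shares 16 exonic bases with FOXA1 on the opposite strand and had 572 to 696 counts. GATA3-AS1, 120 bases from GATA3, had 11 to 17 counts. SYNE1 overlaps ESR1 on the opposite strand with 0 shared exonic bases and had 43 to 66 counts, more than ESR1 in every library. KB-1562D12.1, which shares 50 bases with GRHL2 on the opposite strand, had 5 to 29 counts. TTC6, GATA3-AS1, SYNE1 and KB-1562D12.1 were below the filter.

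The surroundings of the factors were described by the tested genes within 1 Mb. These counts stand beside the 35.1% of all tested genes that were higher and the 35.9% that were lower at the edgeR adjusted p. Around ELF3 the median log2 fold change of 30 genes was -0.0626, with 8 higher and 13 lower at the edgeR adjusted p, and around GRHL2 that of 7 genes was -0.0137, with 2 higher and 3 lower. Around SPDEF the median of 24 genes was -0.256, with 4 higher and 12 lower, and around TFAP2C that of 9 genes was -0.425, with 0 higher and 6 lower. Around TFAP2A the median of 9 genes was 0.18, with 3 higher and 2 lower, and TFAP2B had 0 tested genes within this distance. The 3 tested genes whose log2 profile over the 4 libraries came closest to that of ELF3 were ICA1, PLEKHA7 and KLHL24. Their root mean square differences were 0.00525, 0.00721 and 0.00769. Their log2 fold changes of 0.58, 0.57 and 0.58 lie near that of ELF3 because the genes were chosen by this match.

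Genes that work beside the 9 factors were counted by list, and each count stands beside the 35.1% of all tested genes that rose and the 35.9% that fell at the edgeR adjusted p. Of 18 tested other luminal and epithelial transcription factors, 7 rose and 7 fell, close to these shares, with a median log2 fold change of -0.029 that turned positive with upper-quartile factors (0.0429) and library totals (0.0574). EHF, another epithelial ETS factor, rose from 628 and 768 to 1664 and 1622 counts (log2 fold change 1.22, SE 0.0892, edgeR adjusted p 1.77e-14) and passed the 2-fold limit. MYB, a proto-oncogene, fell from 791 and 938 to 601 and 622 counts (-0.52, SE 0.108, edgeR adjusted p 6.24e-05). Of 13 tested cofactors, 5 rose and 4 fell, again close to them, with a median of -0.019 that turned positive under the same scalings (0.0518 and 0.066). KCTD15, an inhibitor of AP-2 activity, rose from 7697 and 8091 to 14293 and 14454 counts (0.84, SE 0.0355, edgeR adjusted p 2.14e-21). KCTD1, on the same list, fell from 1714 and 1676 to 1276 and 1277 counts (-0.43, SE 0.0725, edgeR adjusted p 2.75e-06). NCOA3, a coactivator of nuclear receptors, rose from 7604 and 7767 to 13743 and 13604 (0.81, SE 0.0346, edgeR adjusted p 3.35e-21). Of 10 paralogs 3 were tested, with a median of -0.078 that turned positive with library totals (0.0082) and was -0.303 with filterByExpr and -0.294 with no filter. GATA2 was lower at 9724 and 9573 against 5940 and 5619 counts (-0.76, SE 0.0378, edgeR adjusted p 2.97e-19), and GATA5 was higher at 385 and 385 against 560 and 625 (0.60, SE 0.13, edgeR adjusted p 0.000103).

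Of the products that luminal cells are known by, 10 of 16 tested genes rose and 3 fell, beside 35.1% and 35.9% of all tested genes. Their median log2 fold change was 0.145 and ranged from 0.0846 with no filter to 0.23 with library totals. The summed level of the list was 30310 to 30790 CPM in the controls against 29530 to 29810 CPM with VIRMA overexpression. MLPH, a vesicle transport protein, rose from 32382 and 32114 to 75666 and 73594 counts (1.19, SE 0.0278, edgeR adjusted p 4.84e-29), and SCGB2A2, the secreted mammaglobin, from 5832 and 6251 to 13118 and 13684 (1.13, SE 0.0389, edgeR adjusted p 6.42e-24). The luminal keratins were mixed. KRT8 fell (-0.51, SE 0.0196, edgeR adjusted p 1.7e-22) and KRT19 fell (-0.12, edgeR adjusted p 3.49e-06), while KRT7 rose (0.49, edgeR adjusted p 3.26e-20) and KRT18 rose (0.075, edgeR adjusted p 0.00317, but 0.121 with no filter). GRB7, which is co-amplified with ERBB2 in HER2-positive tumours, rose (0.43, SE 0.0262, edgeR adjusted p 1.11e-16). EPCAM, also a marker of these cells, fell (-0.39, SE 0.0357, edgeR adjusted p 4.43e-12). Of 21 tested epithelial adhesion and splicing genes, 6 rose and 10 fell, beside 35.1% and 35.9% of all tested genes. Their median was -0.109, and it was -0.0373 with upper-quartile factors and -0.023 with library totals. The splicing regulator ESRP1 rose from 1774 and 1809 to 3830 and 3800 counts (1.07, SE 0.0557, edgeR adjusted p 1.08e-18), and ST14, the protease matriptase, fell from 32198 and 32111 to 19953 and 19620 (-0.72, SE 0.03, edgeR adjusted p 1.58e-21).

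**Figure D4:**
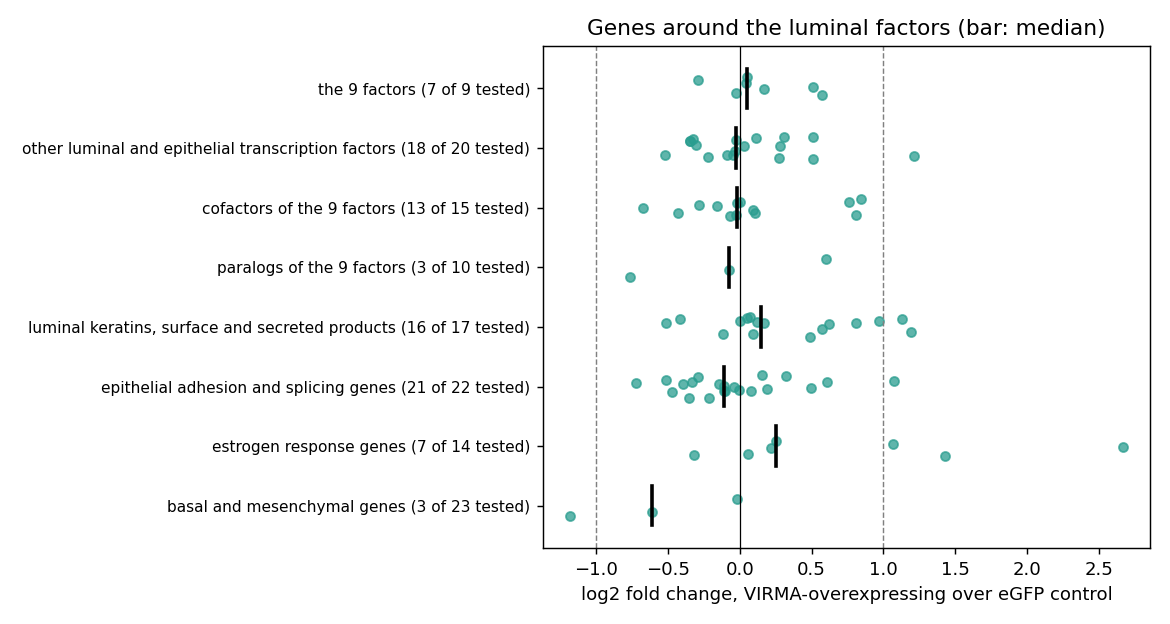
Log2 fold change of the tested genes of the 9 factors and of 7 other lists, with a bar at the median and dashed lines at a 2-fold change (the fibroblast, leukocyte and erythroid markers are not drawn). The medians drawn lay between -0.61 for the 3 tested basal and mesenchymal genes and 0.251 for the 7 tested estrogen response genes.

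Estrogen response genes were counted although ESR1 was close to zero. Of 7 tested, 5 rose and 1 fell, beside 35.1% and 35.9% of all tested genes, and 7 of the 14 were below the filter. The median over the 7 was 0.251, but it was 0.00034 with filterByExpr and 0.00936 with no filter, which admit more of the low genes. Among those, IGFBP4 (-0.99), BCL2 (-0.91), RET (-0.90) and SERPINA1 (-0.52) were at negative log2 fold changes in the fit with no filter, and of these 4 BCL2 passed (edgeR adjusted p 0.024). TFF3 and TFF1, secreted trefoil peptides, had 1688 and 1887 against 4780 and 4955 counts (1.43, SE 0.0555, edgeR adjusted p 2.3e-22) and 283 and 326 against 635 and 655 (1.06, SE 0.133, edgeR adjusted p 9.13e-09). STC2, a secreted glycoprotein that is also induced by endoplasmic reticulum stress, rose from 135 and 123 to 831 and 830 counts (2.67, SE 0.144, edgeR adjusted p 3.43e-18). It passed the filter through the VIRMA-overexpressing libraries alone, at 1.599 and 1.636 RPKM against 0.2675 and 0.2422 RPKM, so its place in the count of tested genes depended on its being higher there. CDH1, the junction cadherin, was near zero in all 4 libraries, with 5 to 33 counts.

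Basal and mesenchymal genes were mostly low. Of the 23, 20 were below the filter, the median of the other 3 was -0.61 (-0.381 with filterByExpr and -1.03 with no filter, over more genes), and 6 had 0 counts in both controls and 7 in both VIRMA-overexpressing libraries. SNAI1, a repressor of epithelial genes, fell from 607 and 560 to 255 and 268 counts (-1.18, SE 0.141, edgeR adjusted p 3.07e-09), and FN1, fibronectin, fell from 4903 and 4561 to 3079 and 3210 (-0.61, SE 0.0496, edgeR adjusted p 2.79e-13). EGFR, the remaining tested gene, overlapped between the groups, at 5660 and 5664 against 5850 and 5468 counts (-0.021, SE 0.0408, edgeR adjusted p 0.653). Markers of fibroblasts, leukocytes and erythroid cells differed between the groups. Of the 18, 2 were tested. Both passed the filter through the controls alone, so that a count of lower genes among them carries no information. HBB, a globin, went from 2137 and 1543 control counts to 0 and 0, and COL1A1, a collagen, had 1119 and 1092 against 713 and 741. The summed level of the 18 markers was 35.65 to 44.81 CPM in the controls and 10.67 to 10.93 CPM in the VIRMA-overexpressing cells. Without HBB it was 17.04 to 18.87 CPM in the controls, of which COL1A1 was 13.59 and 13.18 CPM. LUM, HBB and SLC4A1 were among the markers at 0 in both VIRMA-overexpressing libraries, but LUM had only 1 and 0 counts in the controls and SLC4A1 18 and 8. CD3E went the other way, with 73 and 60 counts in the controls against 87 and 90. The part of these markers in the changes of the luminal factors was not tested. The summed level of the 9 factors was 1420 to 1425 CPM in the controls and 1566 to 1577 CPM in the VIRMA-overexpressing cells. This sum mainly followed ELF3, which went from a mean of 366.7 to 544.9 CPM. SPDEF went the other way, from 339.1 to 277.8 CPM, and FOXA1 was at 171 and 168 CPM.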

How the data were processed

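Poly-A-enriched RNA of SKBR3 cells was sequenced in 4 libraries, 2 per group, which the study's methods call biological duplicates. Whether duplicates came from separate transductions is not stated, so p-values measure the spread between these libraries. Per the methods and the submitters' processing notes, the authors trimmed reads with Trimmomatic 0.39, aligned them with STAR 2.5.2a and counted per gene with featureCounts. The count table as deposited is not normalized and gives each gene's exonic length. The strand setting and the treatment of multimapping reads are not stated. The control columns are named as such, and the other columns, which carry only a number, were taken as the group left over, with the level of VIRMA as a check. Coordinates are GRCh38, since 99.95% of 33915 shared symbols lay at overlapping positions in GENCODE 44.

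CPM and RPKM were computed from the deposited counts, and the filter kept the 12205 genes that exceeded an RPKM of 1, from library totals, in 2 or more libraries. They were fitted in edgeR 4.0.16 (R 4.3.3) by quasi-likelihood with TMM scaling and group alone, and p-values were adjusted by Benjamini-Hochberg across these genes. Standard errors were derived from the F statistics. The thresholds were an adjusted p below 0.05, alone and with at least a 2-fold change. CPM is relative to the counts in tested genes. Ratios between factors were computed per length within a library, and the pairs shown were chosen after the counts were seen. The fit was tested on simulated counts.

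All 9 factors were named. Of each other list, the tested genes past both thresholds were named, up to the 5 with the smallest adjusted p, and the 2 with the largest absolute change where fewer than 2 passed. SKBR3 markers (ERBB2, GRB7, KRT8, KRT18, KRT19, EPCAM, PGR), rows within 10 kb of a factor with at least 10 counts in a library, and the 3 profiles closest to ELF3 were named. Rows whose symbol pools loci on several chromosomes or spans over 3 Mb were not counted as neighbours. CDH1, KRT7, KCTD1, CD3E, EGFR, IGFBP4, BCL2, RET and SERPINA1 were picked with their values in view. The factors and the lists were chosen with earlier results of these data known. The alternatives were DESeq2 1.42.0, limma-voom (limma 3.58.1), 3 other scalings, 3 other filters, a replicate block, a test against 2-fold, and leaving out each library.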

Additional observations from a re-analysis of the deposited data

How the results depend on the processing

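ELF3, GRHL2 and SPDEF did not change direction or lose their call under any of the 13 alternatives that gave them a value. Apart from leaving out libraries, ELF3 ranged from 0.528 to 0.657, GRHL2 from 0.464 to 0.593 and SPDEF from -0.331 to -0.202 on the log2 scale. With a library left out, the ranges were 0.558 to 0.582, 0.457 to 0.554 and -0.292 to -0.282. In those fits the lone library was assumed to vary like the other group. FOXA1 turned positive with upper-quartile factors (0.046), library totals (0.0601) and RPKM above 1 in all 4 libraries (0.00329). In the same 3 settings 5 factors were higher at the adjusted p in place of 3, with TFAP2A and TFAP2C added. Of all genes tested in these settings, 40.9%, 41.9% and 35.8% were higher, against 35.1% in the main fit. With filterByExpr or no filter 2 factors were lower in place of 1, with TFAP2B added. Of all genes in those fits, 26.1% and 15.3% were lower, against 35.9% in the main fit. TFAP2B and ESR1 gave no value in fits that kept the RPKM filter.

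The median of the other luminal and epithelial transcription factors turned positive with upper-quartile factors (0.0429), library totals (0.0574), RPKM above 1 in all 4 libraries (0.000189), without eGFP control replicate 2 (0.0562) and without VIRMA-overexpressing replicate 2 (0.00167), with a range of -0.0555 to 0.0562 when a library was left out. That of the cofactors did so in the same 3 scaling and filter settings (0.0518, 0.066 and 0.0186) and without VIRMA-overexpressing replicate 1 (0.0628; leave-one-out range -0.0263 to 0.0628), and that of the paralogs with library totals (0.0082). Basal and mesenchymal genes past both thresholds and lower numbered 3 with filterByExpr and 3 with no filter in place of 1. For fibroblast, leukocyte and erythroid markers they numbered 5, 7 and, with RPKM above 1 in all 4 libraries, 0. Over all genes, 808 of 20568 were lower by both thresholds with filterByExpr and 820 of 33976 with no filter. With RPKM above 1 in all 4 libraries, 241 of 10740 were. Over all genes shared with the main fit, the median shift of the log2 fold change was 0.0715 with upper-quartile factors and 0.0857 with library totals. It was 0.0288 with RPKM above 1 in all 4 libraries. The cause of the shifts of single factors and lists was not tested, beyond these values and the number of genes each filter admits.

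Replicate numbers did not pair the libraries: deviations of libraries with the same number correlated at 0.0753 over 12205 genes, with 2 pairs. With the replicate number as a block, ELF3 was at 0.5715, GRHL2 at 0.5074, SPDEF at -0.2874 and GATA3 at 0.1707, and no factor changed its call. Counting depth limits ESR1, the RPKM filter kept TFAP2B out of the main fit, and 2 libraries per group limit all tests. An effect of VIRMA and a chance difference between the 2 sorted populations cannot be told apart.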
